A study of Mus musculus with 18 samples.

Results

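The 10 genes described here form the core of the mammalian circadian clock: Arntl, Clock, Npas2, Per1, Per2, Per3, Cry1, Cry2, Nr1d1 and Dbp. They were picked out by gene symbol and are 10 of the 36172 genes listed. All 10 passed the filter on low counts and were among the 14803 genes tested. The libraries came from the brains of mice about 3 months old that carried both the Cx3cr1-cre/ERT2 and the NuTRAP transgenes. NuTRAP is a Cre-dependent allele that tags ribosomes with EGFP, and Cx3cr1 drives the tamoxifen-inducible Cre mainly in microglia, so that tagged ribosomes can be pulled down from a whole tissue homogenate (translating ribosome affinity purification, TRAP). Cx3cr1 is also active in other brain macrophages and in blood monocytes, and the study described a small EGFP-positive population without tamoxifen. Every animal of both treatments had been given tamoxifen on 5 consecutive days, so tagging and tamoxifen were shared by all groups. After a rest of 3 to 4 weeks each animal was injected once, intraperitoneally, with the bacterial endotoxin lipopolysaccharide (LPS, 5 mg/kg) or with the vehicle PBS (phosphate-buffered saline), and the brain was taken after 24 h. From each animal an input library (RNA of the homogenate) and a positive library (RNA of the pulled-down ribosomes) were made. The 4 PBS animals were 2 females and 2 males, and the 5 LPS animals were 4 females and 1 male. The question addressed here is whether clock transcripts differed between LPS and PBS in either fraction, and between the fractions in either treatment.

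The clock works as a loop. ARNTL (also called BMAL1) pairs with CLOCK, or with its relative NPAS2, and the pair activates genes that carry E-box elements, among them the Per and Cry genes, Nr1d1 and Dbp. PER and CRY proteins then repress the pair that activated them. NR1D1 (REV-ERB alpha) represses Arntl through the element called RRE, and DBP, an output factor of the loop, activates through D-box elements, where NFIL3 acts as its opponent. Transcript levels of these genes rise and fall over the day in nearly all tissues, microglia included. The time of day of injection and of tissue collection is not given in the sources used here, so a difference in sampling hour between animals was not tested.

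Values are normalised counts, the deposited estimated counts divided by a size factor for each library. Library totals ran from 22968939 to 35123345 counts, apart from the input library of animal 271 (LPS), which held 1252 counts and was left out. This left 4 libraries in each group apart from the positive LPS group, which had 5. Microglia markers marked the positive fraction, with 8 of 8 called higher than input in PBS (median log2 fold change 4.22). Neuron markers, however, summed to 194971 to 222074 in the positive PBS libraries and 186378 to 195244 in input PBS, and astrocyte markers to 99351 to 149014 and 94236 to 104201. By these sums the positive fraction held neuron and astrocyte transcripts at levels like those of input. Single markers differed, with 3 of 8 neuron markers called higher than input in PBS, against 39.8% of all tested genes called in either direction. Of 6 astrocyte markers 1 was called higher and 2 lower, and Slc1a2 (mean 87727 in positive PBS) made up most of the sum. The study reported neuron and astrocyte markers as generally depleted in the positive fraction of this mouse line, in work described apart from the LPS experiment. It used qPCR of selected genes and RNA sequencing with marker lists from cell sorting, so its measures are not those summed here. A clock transcript in the positive fraction cannot be assigned to microglia from these counts. In bulk RNA, fewer cells of a type and less RNA per cell cannot be told apart. Within the LPS group, animal 270 (both libraries) and animal 271 (positive library) stood apart from animals 266, 267 and 507 in several clock genes. Results that rest on them are given with and without them. They were picked out after the clock values were seen, so p-values without them are descriptions and not independent tests.

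The promoters of some members carry the elements through which the loop acts. RefSeq promoter entries (GRCm38.p6) matched 9 of the 10 members, all but Per2. The motifs below were searched on both strands in the 250 bases before each start: the E-box CACGTG (found in 6.02% of 32851 such windows), its variant CACGTT (3.85%), the D-box TTANGTAA (2.06%), the RRE core TAGGTCA (2.23%) and the cyclic AMP element TGACGTCA (1.55%). Cry1 and Per1 are shown because their levels were the highest in the same LPS libraries, and Per3 because it holds a pair of D-boxes and its level varied in the opposite direction. Nfil3, the opponent of DBP, is shown by the 22 bases before its RefSeq start, which GENCODE counts as exon, because it had the largest response among the clock partner genes. Motif letters are in capitals, the rest in lower case, and all run 5′ to 3′ on the gene's strand. The RefSeq starts of Per1 and Per3 lie 7 and 43 bases from those of the deposited annotation. Bases next to the start that GENCODE annotates as exon were left off Per1 and Cry1.
Per1, chr11:69098699-69098947, + strand: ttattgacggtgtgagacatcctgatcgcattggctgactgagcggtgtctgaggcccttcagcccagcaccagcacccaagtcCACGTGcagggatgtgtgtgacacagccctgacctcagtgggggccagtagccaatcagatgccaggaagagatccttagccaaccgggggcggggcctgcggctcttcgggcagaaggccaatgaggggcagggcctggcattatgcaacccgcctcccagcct
Cry1, chr10:85185065-85185304, - strand: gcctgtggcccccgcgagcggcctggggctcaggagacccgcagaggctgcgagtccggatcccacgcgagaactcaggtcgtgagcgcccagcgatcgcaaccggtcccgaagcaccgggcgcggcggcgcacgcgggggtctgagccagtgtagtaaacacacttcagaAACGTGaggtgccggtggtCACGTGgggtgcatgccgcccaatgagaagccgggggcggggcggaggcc
Per3, chr4:151044666-151044915, - strand: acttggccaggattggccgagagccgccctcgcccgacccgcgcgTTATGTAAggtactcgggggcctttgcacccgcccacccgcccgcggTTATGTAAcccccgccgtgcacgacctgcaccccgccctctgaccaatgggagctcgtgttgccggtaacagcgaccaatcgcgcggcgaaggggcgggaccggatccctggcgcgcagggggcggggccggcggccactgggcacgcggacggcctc
Nfil3, chr13:52981040-52981061, - strand: cgctcggaacTGACCTActaac
In Per1 the E-box lay at positions -166 to -161 from the start. Cry1 held an E-box at -60 to -55 and the variant, read on the other strand, at -79 to -74. The D-boxes of Per3 lay at -205 to -198 and -158 to -151, and the RRE core of Nfil3, read on the other strand, at -12 to -6. Cry2 and Nr1d1 each held the variant CACGTT, at -166 to -161 and at -28 to -23. None of these letters occurred in the windows of Dbp, Npas2, Arntl or Clock, which says only that they are not in these 250 bases.

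Per kilobase of merged exon (GENCODE M21), Nr1d1 was the most abundant member in each of the 4 groups and stood clear of the next. In input PBS the order of normalised counts per kb was Nr1d1 (1981 ± 72.6, SD, n = 4), Dbp (838.6 ± 50.8), Cry2 (765.6 ± 25.2), Per1 (644.8 ± 49.8), Per2 (278 ± 49.6), Cry1 (277.6 ± 36.6), Npas2 (208.5 ± 10.3), Clock (153.4 ± 24.4), Per3 (153 ± 13.3) and Arntl (128.2 ± 9.15). The libraries of Dbp and Cry2 overlapped, as did those of Per2 and Cry1 and, in turn, those of Clock, Per3 and Arntl, so these neighbours could not be ordered. In positive LPS, Dbp was at 530.5 ± 64.1 per kb (n = 5), below Cry2 (850.7 ± 162) and Per1 (850.5 ± 224.6).

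**Figure D1:**
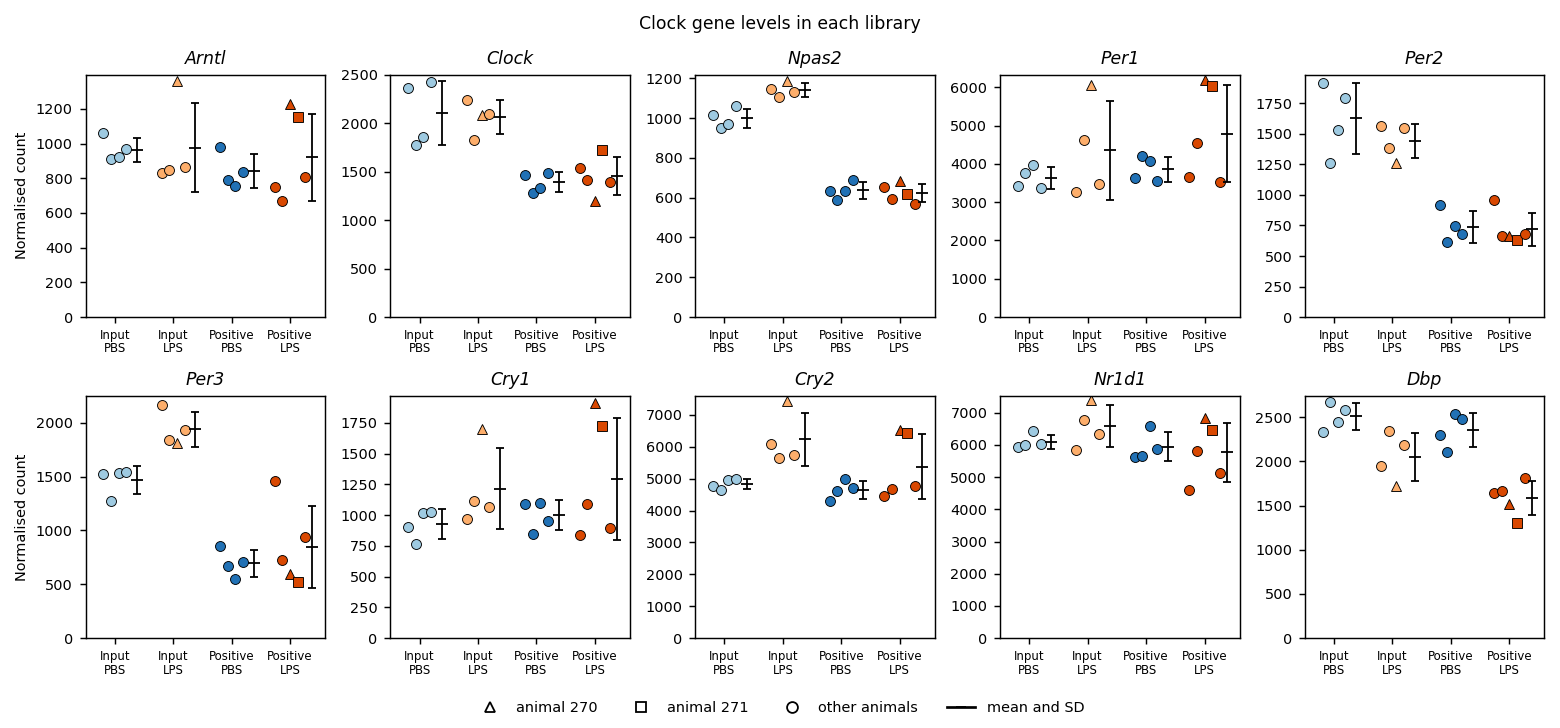
Normalised counts of the 10 clock genes in each of 17 libraries, 1 panel per gene, with the mean and SD of each group beside its points. Triangles are animal 270 and squares animal 271, which lie at the top of the LPS groups for Arntl, Per1, Cry1, Cry2 and Nr1d1, while the 5 positive LPS libraries of Dbp all lie below the 4 positive PBS libraries.

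The output factor Dbp was lower with LPS in the positive fraction. Dbp (gene ID 13170, mm10 chromosome 7, 45705247 to 45710203, + strand) read 2301, 2109, 2533 and 2478 normalised counts in the positive PBS libraries and 1642, 1662, 1516, 1302 and 1817 in the positive LPS libraries of animals 266, 267, 270, 271 and 507. The groups did not overlap, and the lowest library was that of animal 271. Dbp fell by 32.6%, a log2 fold change of -0.57 ± 0.10 (SE), with an adjusted p of 0.000193 (edgeR quasi-likelihood test, Benjamini-Hochberg over all tested genes). It was the 1 member of 10 called, called meaning an adjusted p under 0.05 and a log2 fold change over 0.32 in size (25% up or 20% down), against 33.8% of all tested genes. Likewise 1 member of 10 had groups that did not overlap, against 30.1% of all tested genes, so the share of members that responded was not above the background. Without the libraries of animals 270 and 271 the log2 fold change of Dbp was -0.46 ± 0.08 (adjusted p = 0.000462).

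In input, Dbp read 2329, 2675, 2451 and 2586 in PBS and 1942, 2341, 1716 and 2188 in LPS (animals 266, 267, 270 and 507). The ranges overlapped only through animal 267, and the lowest library was that of animal 270. The log2 fold change was -0.29 ± 0.10, with an adjusted p of 0.071 in the same test. With animal as a replicate block, in a limma fit in place of edgeR, it was -0.33 ± 0.10 (adjusted p = 0.0377, past the threshold). The LPS effect on Dbp was not shown to differ between fractions, with a difference of -0.27 ± 0.14 on the log2 scale (95% interval -0.58 to 0.03, adjusted p = 0.318). Sphk2 shares 741 bases with Dbp on the opposite strand, and the libraries were stranded. Also on the opposite strand, D930015M05Rik shares 23417 bases with Cry2 and Gm17904 shares 2452 bases with Npas2. Clock and Npas2 overlap short genes on their own strand, Ube2n-ps1 (1213 bases) and Gm3617 (623 bases), with which the counting could share reads. The summed neuron markers ran lower in positive LPS (146560 to 202825) than in positive PBS (194971 to 222074), with an overlap through animal 270. Of the 8 markers 3 were called lower, against 33.8% of all tested genes called in either direction. The part of neuron transcripts in the fall of Dbp was not tested. Animals 270 and 271 had the lowest Dbp and the highest neuron sums (202825 and 192260) of the positive LPS libraries, a comparison chosen after the values were seen.

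Nr1d1, the repressor of Arntl, was not called for LPS in either fraction. Nr1d1 (ID 217166, chromosome 11, 98767935 to 98775242, - strand) read 5617, 5672, 6597 and 5889 in positive PBS and 4608, 5805, 6848, 6460 and 5127 in positive LPS. The LPS libraries lay on both sides of the PBS libraries, as they did in input (5840 to 7392 in LPS, 5942 to 6428 in PBS). Its log2 fold change was -0.04 ± 0.10 in the positive fraction (95% interval -0.26 to 0.17) and 0.11 ± 0.11 in input (-0.11 to 0.34).

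The activators Arntl, Clock and Npas2 were not called in either LPS effect. Arntl (ID 11865, chromosome 7, 113207465 to 113314126, + strand) read 979, 790, 754.8 and 835.7 in positive PBS and 749.9, 671.3, 1228, 1152 and 806.7 in positive LPS. In input it read 1061, 910.1, 920.2 and 966.9 in PBS and 830.4, 848.2, 1363 and 865.8 in LPS. The libraries of animals 270 and 271 were above every PBS library of their fraction, while the other input LPS libraries were below every PBS library. The log2 fold change of Arntl was 0.13 ± 0.18 (positive) and 0.02 ± 0.18 (input) with all libraries, and -0.17 ± 0.10 and -0.18 ± 0.10 without animals 270 and 271 (adjusted p = 0.185 and 0.247), so the direction in both fractions turned on these animals. Clock (ID 12753, chromosome 5, 76212177 to 76304548, - strand) had log2 fold changes of 0.06 ± 0.11 (positive) and -0.03 ± 0.12 (input). Npas2 (ID 18143, chromosome 1, 39194272 to 39363240, + strand) was at -0.03 ± 0.08 and 0.19 ± 0.08, and its input libraries did not overlap (949.3 to 1060 in PBS, 1105 to 1188 in LPS), but the adjusted p of 0.121 missed the threshold.

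Of the repressors, Per1, Cry1 and Cry2 were highest in the LPS libraries of animals 270 and 271. Per1 (ID 18626, chromosome 11, 69098956 to 69109957, + strand), a gene also switched on rapidly by light and by glucocorticoid hormone, read 3631, 4194, 4087 and 3541 in positive PBS and 3660, 4542, 6177, 6036 and 3532 in positive LPS. In input LPS it read 3254, 4614, 6071 and 3475, against 3373 to 3961 in PBS. Animals 270 and 271 were 0.65 to 0.74 above the PBS mean of their fraction on the log2 scale, and animals 266 and 507 were within or close to the PBS range. The log2 fold change of Per1 was 0.31 ± 0.18 in the positive fraction (adjusted p = 0.178) and 0.26 ± 0.19 in input (adjusted p = 0.394), and 0.03 ± 0.12 and 0.06 ± 0.12 without animals 270 and 271.

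Cry1 (ID 12952, chromosome 10, 85131700 to 85185054, - strand) followed the same animals. It read 1091, 846.1, 1101 and 950.3 in positive PBS and 834.4, 1092, 1913, 1727 and 897.2 in positive LPS, and 968.5, 1117, 1696 and 1064 in input LPS against 765.6 to 1024 in input PBS. Only the libraries of animals 270 and 271 lay far above the PBS range. Its log2 fold change of 0.38 ± 0.22 in the positive fraction (adjusted p = 0.186) became -0.07 ± 0.13 without them, and that of 0.39 ± 0.23 in input (adjusted p = 0.298) became 0.18 ± 0.12.

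Cry2 (ID 12953, chromosome 2, 92403647 to 92434069, - strand) was the member closest to a call in input. It read 4761, 4654, 4946 and 4995 in input PBS and 6095, 5651, 7446 and 5733 in input LPS, so that every LPS library was above every PBS library. The log2 fold change was 0.36 ± 0.12 with an adjusted p of 0.0509 in edgeR. With animal as a replicate block, in a limma fit, it was 0.39 ± 0.11 (adjusted p = 0.0192, past the threshold). In edgeR without animals 270 and 271 it was 0.27 ± 0.06, with an adjusted p of 0.00958 but a change under the fold threshold. In the positive fraction Cry2 read 4305 to 4983 in PBS and 4467, 4664, 6536, 6447 and 4770 in LPS, a log2 fold change of 0.21 ± 0.11 that was 0.00 ± 0.07 without these animals.

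Per3 (ID 18628, chromosome 4, 151003655 to 151044622, - strand) varied the other way. In the positive LPS libraries it read 1459, 728.2, 591.7, 519.1 and 940.5, against 857, 668.1, 544.6 and 703.2 in PBS, so that animals 270 and 271, the highest for Cry1, were the lowest for Per3. Its log2 fold change of 0.29 ± 0.22 (adjusted p = 0.309) became 0.59 ± 0.19 without animals 270 and 271, with 3 LPS libraries left. The adjusted p of 0.0188 was past the threshold, but these animals were left out after their values were seen. Without the positive library of animal 266 the log2 fold change was 0.01 (adjusted p = 0.974), so that its size turned on single animals. In input Per3 read 1525, 1278, 1533 and 1544 in PBS and 2167, 1843, 1814 and 1932 in LPS. These groups did not overlap, yet the log2 fold change of 0.40 ± 0.23 had an adjusted p of 0.263. Per2 (ID 18627, chromosome 1, 91415982 to 91459328, - strand) had log2 fold changes of -0.04 ± 0.15 (positive) and -0.17 ± 0.15 (input), with overlapping groups in both.

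In input, none of the 10 members was called by edgeR, against 12.4% of all tested genes, and 3 had an unadjusted p under 0.05 (Npas2, Cry2 and Dbp). DESeq2 called 1 (Cry2) and limma on log2 normalised counts 0. Npas2, Per3 and Cry2 were the 3 members of 10 whose input groups did not overlap, against 24.1% of all tested genes. The median log2 fold change over the members was 0.10 (positive) and 0.15 (input), and over all tested genes 0.01 and 0.00. When the LPS effects of the fractions were compared with each other, edgeR called 0 members, with 0 at an unadjusted p under 0.05, and DESeq2 and limma also called 0, against 6.88% of all tested genes by edgeR. The members' differences ran from -0.27 (Dbp) to 0.14 (Per2) on the log2 scale.

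**Figure D2:**
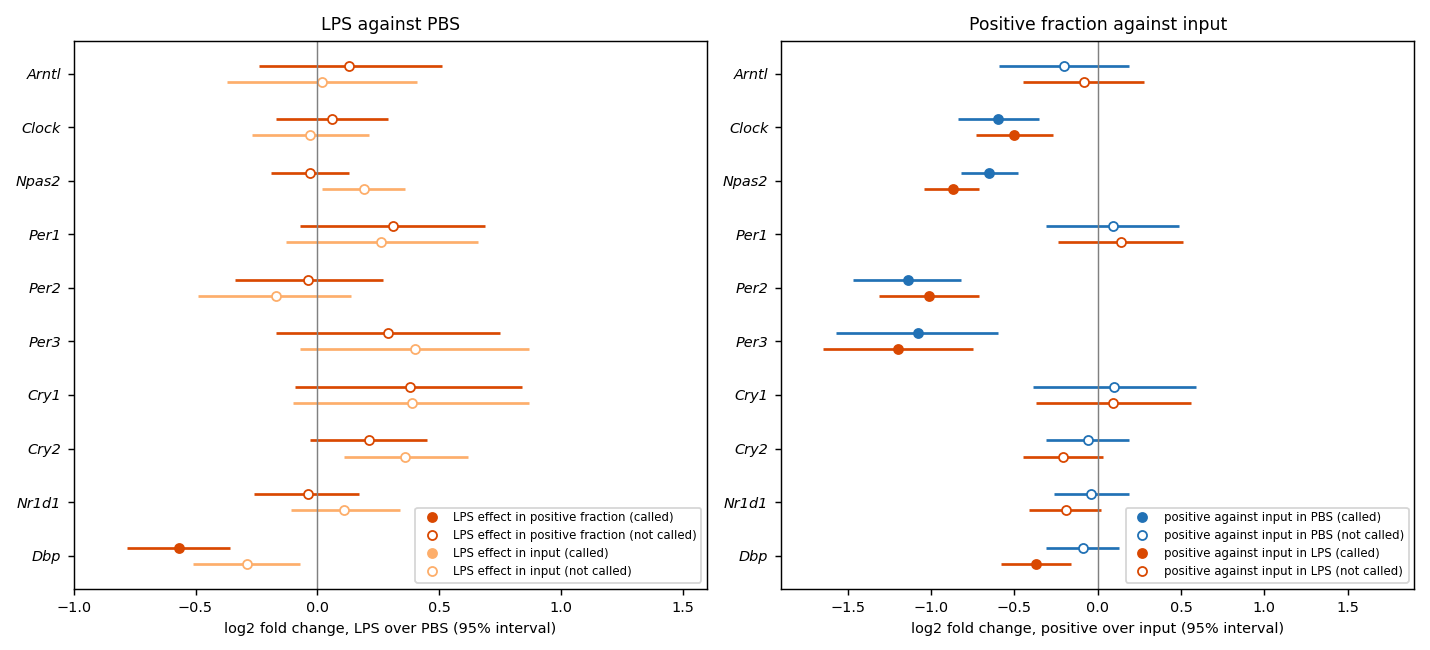
Log2 fold changes of the 10 members with 95% intervals from edgeR, LPS over PBS in each fraction on the left and positive over input in each treatment on the right, filled points being called. On the left only Dbp in the positive fraction is called, at -0.57, and on the right Clock, Npas2, Per2 and Per3 are called in both treatments and Dbp in LPS.

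The deviations of animals 270 and 271 ran through several members at once. Relative to the positive PBS mean, animals 270 and 271 were at 0.95 and 0.80 for Cry1 (log2), 0.68 and 0.65 for Per1, 0.55 and 0.46 for Arntl, 0.49 and 0.47 for Cry2, and -0.63 and -0.85 for Dbp. For the same genes animal 507 was at -0.14, -0.13, -0.05, 0.04 and -0.37. Dbp was therefore below the PBS mean in each of the 5 positive LPS libraries (-0.37 to -0.85), while Arntl, Per1 and Cry1 were not above it in each. The log2 ratio of Cry1 to Dbp within a library, which needs no scaling between libraries, was -1.38 to -1.08 in positive PBS, -0.98, -0.61 and -1.02 in animals 266, 267 and 507, and 0.34 and 0.41 in animals 270 and 271. Per1 to Dbp gave 0.52 to 0.99 in positive PBS, 1.16, 1.45 and 0.96 in animals 266, 267 and 507, and 2.03 and 2.21 in animals 270 and 271. Summed neutrophil and monocyte markers were 438.7 and 868.1 in the positive libraries of animals 270 and 271 and 766.4 to 1015 in the others of that group. In the input library of animal 270 they were 509, against 1015 to 1320 in the other LPS inputs and 189.6 to 482.1 in PBS. Counts of markers by animal were chosen after the values were seen, and the share of all tested genes with the same order of animals is not given. Of the 8 microglia markers, 3 (Cx3cr1, Aif1 and Itgam) were lowest in animals 270 and 271 among the positive LPS libraries and 0 were highest. Aif1 read 1580 and 1905 there against 3541 to 4767 in the other animals, and Itgam 14533 and 17397 against 24521 to 29237. In the input of animal 270, Aif1 read 69.8 against 186.2 to 191.1 in the other LPS inputs, and Itgam 945.8 against 1859 to 2036. Summed over the 8 microglia markers, however, the positive libraries of animals 270 and 271 (177155 and 171387) were not the lowest. Animal 266 was at 152832, and animals 267 and 507 were at 211764 and 210359. In input the sum was 9536 in animal 270, against 11086 to 13661 in the other LPS inputs. Of the 8 neuron markers, 6 were highest in animals 270 and 271 among the positive LPS libraries. The part of these markers in the spread of the clock genes was not tested, and sampling hour is not given.

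**Figure D3:**
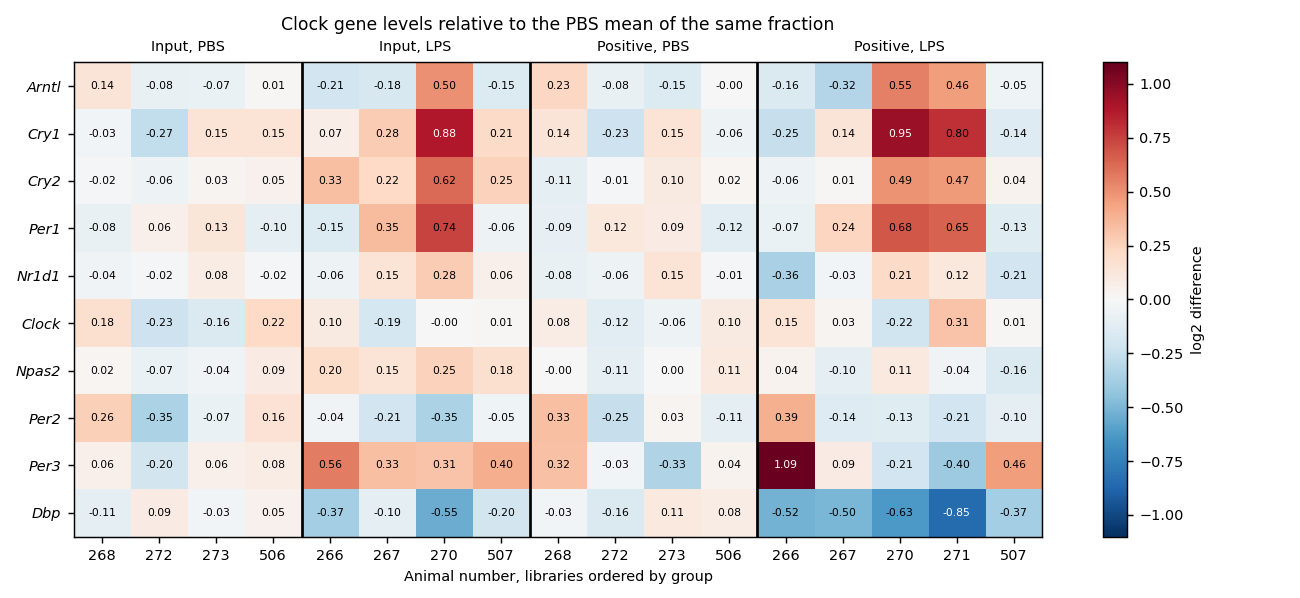
Log2 difference of each member in each library from the PBS mean of the same fraction, with 10 genes as rows and 17 libraries as columns ordered by group and animal number. Animals 270 and 271 are red for Arntl, Cry1, Cry2 and Per1, and Dbp is blue in every LPS library, from -0.10 in the input of animal 267 to -0.85 in the positive library of animal 271.

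As a description over the 17 libraries, which share animals and pull-downs, the log2 deviations from group means of Per1, Cry1, Cry2 and Nr1d1 went together (Pearson r 0.79 to 0.89 between pairs), and Nr1d1 ran against Per3 (r = -0.87). Without animals 270 and 271 (14 libraries), Nr1d1 against Per3 remained at -0.83, Per1 with Nr1d1 at 0.70 and Cry1 with Nr1d1 at 0.67, whereas Cry1 with Cry2 dropped from 0.89 to 0.22 and Arntl with Cry1 from 0.83 to -0.01. Dbp ran against Arntl at -0.69 with all libraries and at -0.07 without them. The genes most like a member by the same measure, among 12598 genes averaging 100 or more normalised counts, were Npat (0.96), Zfp451 (0.96) and Dcaf10 (0.95) for Arntl, Mafk (0.96), Plekhm2 (0.95) and Plvap (0.95) for Per1, and Fam181b (0.89), Crybb1 (0.88) and Nme3 (0.88) for Dbp.

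Both libraries of an animal come from the same homogenate, so the members could also be compared between fractions animal by animal. Over the 8 animals with both libraries, the deviation from the treatment mean in input was set against that in the positive fraction. The p-values came from exact two-sided permutation tests, with adjustment over all tested genes. Here all 8 animals were permuted, across both treatments. Deviations centred within a treatment are not freely exchangeable between treatments. In input, for example, Per1 spread more in LPS (-0.37 to 0.53) than in PBS (-0.10 to 0.13). The p-values are therefore approximate, and passing the threshold is given as a description. An unadjusted exact permutation p under 0.05 was reached by 6 of 10 members (Arntl, Npas2, Per1, Cry1, Cry2 and Nr1d1) and by 26.8% of all tested genes, whose median r was 0.47. After adjustment 3 members passed in this approximate test, Nr1d1, Per1 and Arntl.

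For Nr1d1 the animals had the same order in both fractions (r = 0.99, exact permutation p = 2.48e-05, the smallest when all 8 animals are permuted, adjusted p = 0.0204, Spearman rho = 1.00, exact p = 4.96e-05). The value of r was 0.99 again without the animals farthest out in input, 266 and 270. Per1 gave r = 0.98 (exact p = 0.000546, adjusted p = 0.0335, rho = 0.88, exact p = 0.00724) and 0.96 without animals 266 and 270. Arntl gave r = 0.96 (exact p = 0.00126, adjusted p = 0.0415, rho = 0.88, exact p = 0.00724) and 0.66 without animals 268 and 270, on which it rested in part. Cry1, Cry2 and Npas2 gave r of 0.92, 0.89 and 0.82 with adjusted exact permutation p of 0.0523, 0.0965 and 0.107, and 0.68, 0.50 and 0.71 without the 2 animals farthest out. Clock, Per2 and Per3 gave r of 0.56, 0.67 and 0.61. For Dbp the relation did not hold (r = 0.34, exact permutation p = 0.407, rho = 0.43, exact p = 0.299, r = 0.06 without animals 267 and 270). In the 6 animals not numbered in the 500s, r was 0.99 for Nr1d1, 0.98 for Per1, 0.97 for Arntl and 0.17 for Dbp, while that of Per2 was 0.91 in place of 0.67. The 500s held 1 animal per treatment, too few for a value.

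**Figure D4:**
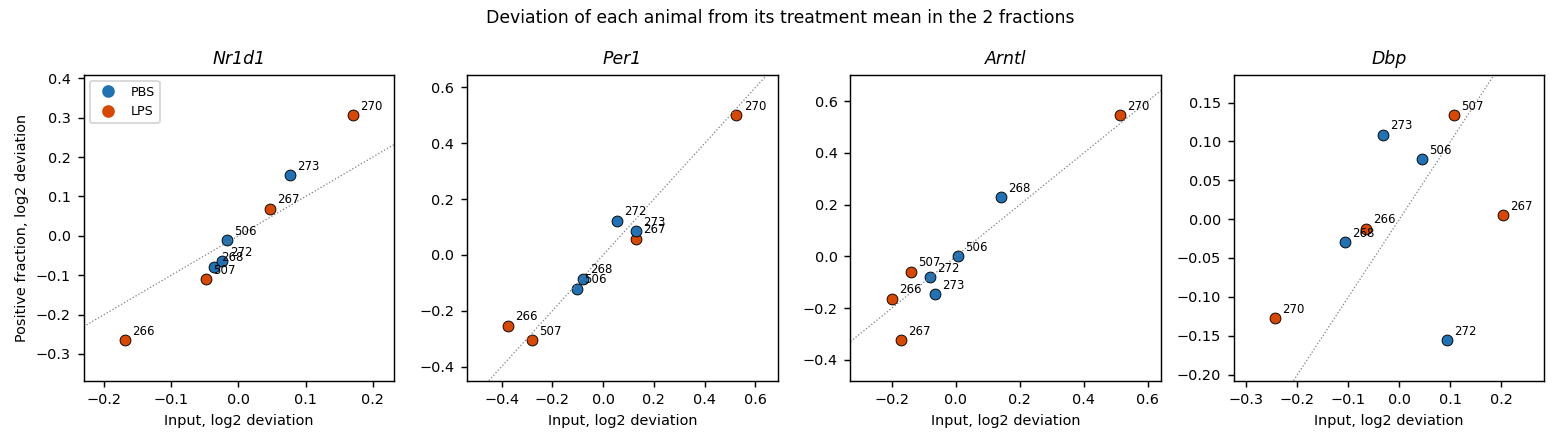
Log2 deviation of each of 8 animals from its treatment mean in input (horizontal) and in the positive fraction (vertical) for Nr1d1, Per1, Arntl and Dbp, with PBS in blue, LPS in red, animal numbers beside the points and a dotted line of equal deviation. The points rise along the line for Nr1d1 (r = 0.99), Per1 (r = 0.98) and Arntl (r = 0.96) and scatter for Dbp (r = 0.34).

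Against input, the positive fraction held less of Clock, Npas2, Per2 and Per3. Per2 read 916.9, 612, 743 and 676.4 in positive PBS and 1920, 1265, 1534 and 1793 in the input libraries of the same animals. Every positive library was below every input library, with a log2 fold change of -1.14 ± 0.15 (adjusted p = 7.89e-06). Per3 read 544.6 to 857 in positive PBS and 1278 to 1544 in input PBS, a log2 fold change of -1.08 ± 0.23 (adjusted p = 0.00089). Npas2 was at -0.65 ± 0.08 (587.2 to 686.6 in the positive fraction, 949.3 to 1060 in input) and Clock at -0.60 ± 0.12 (1282 to 1487 and 1776 to 2425). These 4 of 10 members were called, against 39.8% of all tested genes, and the same 4 had groups that did not overlap, against 45.7%. Arntl, Per1, Cry1, Cry2, Nr1d1 and Dbp differed by -0.20 to 0.10 on the log2 scale in PBS and were not called.

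In LPS the same 4 genes were called lower and Dbp was added, 5 of 10 against 53.4% of all tested genes. The log2 fold changes were -1.01 ± 0.14 for Per2, -1.20 ± 0.21 for Per3, -0.87 ± 0.08 for Npas2, -0.50 ± 0.11 for Clock and -0.37 ± 0.10 for Dbp (adjusted p = 0.00409). The positive and input LPS libraries of Dbp overlapped (1302 to 1817 and 1716 to 2341), and 4 members had groups that did not, against 45.3% of all tested genes. The edgeR fit with animal as a replicate block used only animals with both libraries, and so lacked the positive library of animal 271. In that fit Dbp was at -0.30 ± 0.07 (adjusted p = 0.00291), under the fold threshold. Cry2 was at -0.21 ± 0.11 and was called without animals 270 and 271 (-0.33 ± 0.07, adjusted p = 0.000924). In the same comparison in PBS, oligodendrocyte markers were lower in the positive fraction (6 of 6 called, median log2 fold change -2.27) and endothelial markers higher (6 of 6 called, 1.56). Of all tested genes 39.8% were called there in either direction. Pull-down of ribosomes and the mix of cells cannot be told apart as sources of these differences.

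The partner list held 20 genes that regulate or read out the clock, of which 19 passed the filter and Bhlhe41 was listed at 0 in every library, a value that may come from the annotation counted and not from its level. In the positive fraction 3 were called higher with LPS (Nfil3, Timeless and Nampt) and 1 lower (Btrc), 4 of 19 against 33.8% of all tested genes. In input 1 of 19 was called, Nampt, against 12.4%. The median log2 fold change of the list was 0.07 (positive) and 0.19 (input).

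Nfil3 (ID 18030, chromosome 13, 52967209 to 52981039, - strand), which binds the same D-box elements as DBP and represses through them, rose in the positive fraction alone. It read 487.9, 521.6, 534.1 and 426.7 in positive PBS and 1097, 1173, 1261, 1495 and 918.3 in positive LPS, and 400.4 to 458.7 in input PBS and 357.5, 407.1, 532 and 311.2 in input LPS. Each positive LPS library was above every library of the other groups. The log2 fold change was 1.27 ± 0.15 in the positive fraction (adjusted p = 3.05e-06) and -0.12 ± 0.16 in input (adjusted p = 0.67), and the difference between these effects, 1.39 ± 0.21, was itself called (adjusted p = 0.000623). Without animals 270 and 271 the difference was 1.40 ± 0.16. The log2 ratio of Nfil3 to Dbp within a library was -2.26 ± 0.21 in positive PBS (SD, n = 4) and -0.43 ± 0.44 in positive LPS (n = 5), with -2.52 ± 0.17 and -2.36 ± 0.48 in input PBS and LPS. Summed neutrophil and monocyte markers rose with LPS in both fractions, from 172 to 348.5 in positive PBS to 438.7 to 1015 in positive LPS. The markers did not move together. Of 6 tested in the positive fraction, 4 were called higher and 1 lower, against 33.8% of all tested genes called in either direction. Ly6g was at 0 in every library. From positive PBS to positive LPS the mean of S100a8 rose from 15.8 to 414.8. That of Ly6c2 went from 146.8 to 182.7, and that of Ccr2 fell from 43.5 to 8.36. The part of these markers in the rise of Nfil3 was not tested.

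Btrc, a ubiquitin ligase subunit that marks PER proteins for breakdown, fell in the positive fraction. It read 3887, 4745, 4090 and 4261 in positive PBS and 2839, 3398, 2534, 2538 and 3329 in positive LPS, without overlap. Its log2 fold change was -0.54 ± 0.10 (adjusted p = 0.000214), and -0.24 ± 0.10 in input (adjusted p = 0.125). Timeless, a partner of PER and CRY that also acts in DNA replication, rose from 193.6 to 250.7 in positive PBS to 315.9 to 404.3 in positive LPS (log2 fold change 0.72 ± 0.15, adjusted p = 0.00103), and was at 0.47 ± 0.16 in input (adjusted p = 0.0556). Nampt, the enzyme of NAD salvage and a clock output, rose by 0.48 ± 0.09 (log2) in pulled-down RNA (adjusted p = 0.000258) and by 0.33 ± 0.09 in input (adjusted p = 0.0197). The input call of Nampt lay at the fold threshold and was lost without animal 270 (0.31, adjusted p = 0.0554 without its input library) and without the input libraries of animals 266, 272 or 273.

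**Figure D5:**
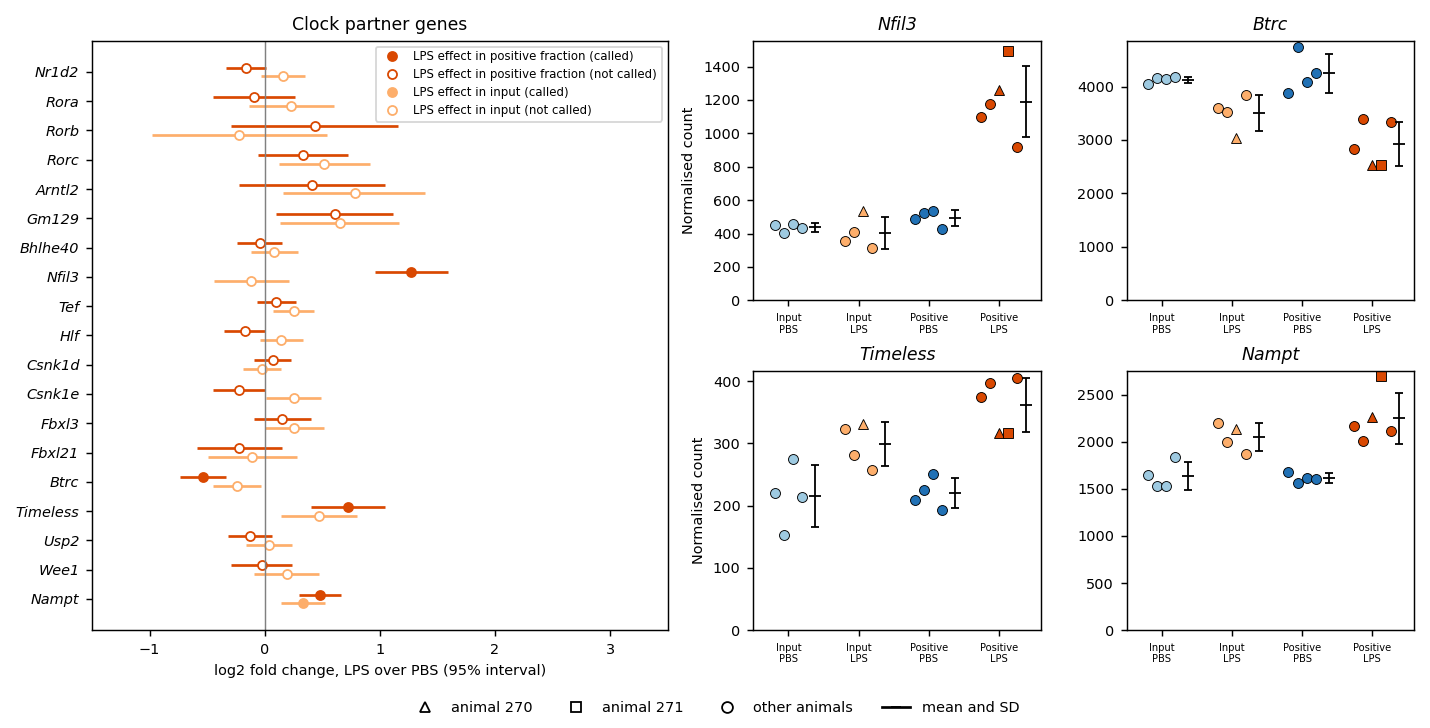
Left, log2 fold changes of 19 clock partner genes for LPS over PBS with 95% intervals, filled points being called; right, normalised counts per library of the 4 partners called, with group means and SDs. Nfil3 stands apart, with 918.3 to 1495 in positive LPS and 311.2 to 534.1 in the libraries of the other groups.

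Because Per1 and other members respond to glucocorticoids, 10 target genes of the glucocorticoid receptor were followed beside the clock. In the positive fraction 6 of 10 were called higher with LPS and 0 lower, and in input also 6 higher and 0 lower, against 33.8% and 12.4% of all tested genes called in either direction. The median log2 fold changes of the list were 0.73 and 0.51, and those of all tested genes 0.01 and 0.00. The largest rises in the positive fraction were those of Mt2, a metallothionein (2.04 ± 0.21, adjusted p = 7.28e-07), and Cdkn1a, a cell cycle inhibitor (1.62 ± 0.25, adjusted p = 5.88e-05). In input they were those of Cdkn1a (1.82 ± 0.26) and Fkbp5, a chaperone of the receptor (1.49 ± 0.24, adjusted p = 0.000324). In the positive LPS libraries, animals 270 and 271 held the highest levels of 8 of the 10 targets (Tsc22d3, Sgk1, Zbtb16, Klf9, Errfi1, Pdk4, Cdkn1a and Mt2). In the LPS inputs animal 270 was highest for 10 of 10. These counts were also chosen after the values were seen, and they have no background from all tested genes beside them. Cdkn1a, for example, read 8574 and 7773 in their positive libraries against 3828 to 5516 in the other positive LPS libraries and 1481 to 2152 in PBS, while Fkbp5 in animals 270 and 271 (15535 and 16073) lay close to animals 266, 267 and 507 (13991, 16147 and 14801). Several of these genes also respond to other stress signals.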

How the data were processed

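The study deposited 1 table for 18 libraries of 9 animals, with estimated counts per RefSeq gene (Strand NGS, mm10, stranded reads) and log2 normalised values (DESeq size factors, set to a baseline). The deposited counts were not whole in 81.1% of values above 0 (more than 0.001 from a whole number) and were rounded. They were divided by size factors (medians of ratios over 15766 genes, 0.766 to 1.32). Genes with over 20 normalised counts in every library of at least 1 group were tested (14803). The main fit was edgeR 4.0.16 (R 4.3.3), quasi-likelihood, 1 mean per group, 17 libraries and 13 residual degrees of freedom, with Benjamini-Hochberg adjustment over all tested genes and SE from the fold change and F. A call needed an adjusted p under 0.05 and a change over 25% up or 20% down, after the study's criteria, and edgeR replaced its analysis of variance because the values are counts. Alternatives used limma 3.58.1, DESeq2 1.42.0, TMM, other filters, the deposited log2 values, a sex term and omitted libraries. Input and positive libraries with the same number came from the same animal by their labels, and over tested genes their deviations from group means correlated at 0.16 to 0.55 in the 8 animals with both, so animal was fitted as a block as an alternative. For the LPS effects this block was a correlation within animals in a limma fit with voom weights, over all 17 libraries. For positive against input and for the difference it was an edgeR fit with a term for each animal, over the 8 animals with both libraries. Permutation p-values of the comparison by animal were adjusted over all tested genes, in place of the 10 members as first planned. With 1 library per animal and fraction, the p-values of the LPS effects rest on the spread between animals, pooled over both fractions. The main fit treated the 17 libraries as independent, although both libraries of an animal correlated. Its p-values for positive against input and for the difference between fractions therefore leave out the pairing, which the fit with animal as a block takes in. Intervals are 95%. The script was tested on simulated data. All 10 members were named, with partners called in an LPS effect or in its difference, and the 2 largest rises and falls among called glucocorticoid targets in each LPS effect. The members and lists were chosen with earlier results of these data known.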

Additional observations from a re-analysis of the deposited data

Results flagged for a closer look

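In 40 groups of 4 or 5 libraries (10 members, 4 groups), 4 libraries stood apart from the rest of their group by Dixon's criterion, and chance flags about 1 in 20 groups. They were the input library of animal 270 (LPS) for Arntl, at 1363 against 830.4 to 865.8, the positive library of animal 266 (LPS) for Per2, at 955.7 against 631.7 to 678.9, the input library of animal 272 (PBS) for Per3, at 1278 against 1525 to 1544, and the input library of animal 273 (PBS) for Nr1d1, at 6428 against 5942 to 6023. The spread of Cry1 and Per1 among positive LPS libraries did not meet the criterion, since animals 270 and 271 lay together.

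Nfil3 was the partner gene whose LPS effect differed between fractions, by 1.39 on the log2 scale (edgeR interaction, adjusted p = 0.000623).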

How the results depend on the processing

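Dbp in the positive fraction was called under all 30 alternatives (-0.62 to -0.46), and the difference of Nfil3 between fractions under all 29 (1.28 to 1.55). The count of members called in the positive LPS effect was 1, and 1 whichever library was left out. It was 2 (Dbp and Per3) without animals 270 and 271, which were picked out after their values were seen. In input it was 0, but 1 with DESeq2, 1 with the deposited log2 values, 2 with the replicate block, 2 when only input libraries were fitted, and 0 to 2 with 1 library left out. All genes called in input fell from 1839 to 1083 without the 500s animals (1452 to 1979 with 1 library left out), and those for the difference were 1018, 1908 with the replicate block, 323 without the 500s (749 to 1263 with 1 library left out). Fewer libraries enter the fits that leave animals out. For the difference, the replicate block also left out the positive library of animal 271. For the replicate block and the other settings the cause was not tested.

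Log2 fold changes that changed sign were small or turned on animals 270 and 271. With those animals left out, values were -0.17 (Arntl), 0.06 (Per2) and -0.07 (Cry1) in the positive LPS effect, -0.18 for Arntl in input (-0.18 without both libraries of animal 270), -0.16 for Cry1 positive against input in LPS, and -0.04 (Per1) and 0.16 (Per3) for the difference. Without animal 270 the difference for Cry1 was 0.01. With all 18 libraries, values were 0.02 (Npas2) and 0.02 (Per2) in the positive LPS effect, -0.04 (Per1) and -0.02 (Cry1) positive against input in PBS, -0.02 for Cry1 in LPS and 0.00 for its difference. With the deposited log2 values they were 0.02 (Npas2), 0.01 (Per2), 0.01 for Clock in input, -0.04 (Per1), -0.02 (Cry1), and -0.06 for Cry1 in LPS. With the replicate block they were 0.00 for Clock in input, -0.08 for Cry1 positive against input in LPS, and -0.04 for Per1 in the difference, and that setting changed no other direction. Its values for positive against input and for the difference left out the positive library of animal 271. Without the 500s, Npas2 was 0.04 (positive) and Clock 0.04 (input). Arntl in input was -0.01 with limma and -0.06 with a sex term, and the difference for Cry1 was 0.00 with TMM.

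With 1 library left out at a time, ranges that crossed 0 were, in the positive LPS effect, -0.07 to 0.01 (Npas2), -0.15 to 0.08 (Per2) and -0.11 to 0.03 (Nr1d1), in input -0.18 to 0.09 (Arntl) and -0.11 to 0.04 (Clock), positive against input in LPS -0.21 to 0.12 (Arntl) and -0.09 to 0.30 (Cry1), and for the difference -0.01 to 0.32 (Arntl), -0.07 to 0.25 (Per1), -0.39 to 0.02 (Per3) and -0.19 to 0.19 (Cry1).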
